A study of Mus musculus with 8 samples.

Results

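Chromatin accessibility around Nos2 and Arg1 was followed in mouse bone marrow-derived macrophages with ATAC-seq, a method that uses the Tn5 transposase to cut and tag open DNA. The members were all peaks of the deposited table (build mm9) that touched 2 windows, chromosome 11 from 78700000 to 78800000 around Nos2 and chromosome 10 from 24590000 to 24680000 around Arg1. This gave 14 of 74207 peaks, 6 in the Nos2 window and 8 in the Arg1 window. Position alone chose them, although the pair of genes was picked with earlier results of these data known.

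All cells came from wild-type C57Bl/6 mice and were grown in CMG medium with serum. The 4 groups were unstimulated cells, fenoterol alone, LPS alone, and fenoterol followed by LPS, each with 1 library from either of 2 mice (n = 2), which makes 8 libraries. Fenoterol (1 µM, 15 min) activates β2 adrenergic receptors. LPS (100 ng/mL, 1 h) is bacterial lipopolysaccharide, which macrophages sense with Toll-like receptor 4. If these labels mean 15 min of fenoterol and then 1 h of LPS, time since the agonist was added differed between the fenoterol groups. It would then be 1 h longer in cells given both agents than in cells given fenoterol alone. No label used here gives the time of harvest or says whether the agonist was washed off. The age of the mice is not given in the sources used here, and macrophage markers were not checked because gene annotation of build mm9 was not used here.

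Both genes encode enzymes that consume arginine. Nos2, the inducible nitric oxide synthase, turns arginine into nitric oxide and citrulline and is a classical gene of LPS-activated macrophages, where NF-κB and interferon signals drive it. Arg1, arginase 1, splits arginine into ornithine and urea and marks macrophages activated by IL-4, whose signal runs through STAT6. Arg1 is also known to respond to cyclic AMP, the second messenger of β2 adrenergic receptors, and an enhancer a few kilobases upstream of it has been described at which STAT6 and C/EBPβ act.

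Nos2 is transcribed towards higher coordinates and Arg1 towards lower ones. Their spans were taken as 78734000 to 78774000 and 24635000 to 24648000, which are rounded, so distances from a gene's start are approximate. In RefSeq order (GRCm38.p6, used for neighbours only) Nos2 lies between the pseudogene Gm19741 and Lgals9, which encodes galectin-9. Arg1 lies between the microRNA gene Mir6905 and the long noncoding RNA gene Gm40616, with the Mediator subunit gene Med23 beyond Mir6905. Peaks away from the start of Nos2 or Arg1 were not assigned to a gene, exon or intron.

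Values are RPKM (reads per kilobase of peak, relative to all reads in peaks), divided by a size factor per library. The unstimulated library of mouse 1 held 1426873 reads in peaks, fewer than the 3164446 to 4040292 of the other 7. The members' values in that shallow library therefore rest on few reads, from 1 to 80 per peak against 3 to 197 in the others. Differences are log2 of value + 4 RPKM, which understates the change of low peaks, and were tested with limma-trend over 66786 peaks with Benjamini-Hochberg adjustment and a threshold of 0.05. Of the 14 members, 13 passed the filter that left out the lowest 10% of peaks. The average effect of LPS sets the 4 libraries with LPS against the 4 without, allowing for fenoterol. In bulk libraries, a region open in more cells and one more open per cell cannot be told apart.

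Peaks lay at the start of each gene and outside the gene spans, with none further inside either gene. At Nos2, no peak was found for 52.6 kb after the one at its start. At Arg1, the peak at the start was followed downstream by 16.3 kb without one. The peak at the start of Arg1 and the next peaks upstream of it, 3 in all, stood close together, with gaps of 1.7 kb and 0.9 kb. The median width of the members was 468 bp (range 199 to 737 bp, end minus start), against 404 bp for all peaks. Tiles of the same length over the genome's peaks, chromosome Y left out, held a mean of 2.89 peaks per 100 kb tile and 2.6 per 90 kb tile. The median was 1 peak at either length. Fewer peaks than in the Nos2 window were held by 79.0% of the 100 kb tiles. Fewer than in the Arg1 window were held by 90.0% of the 90 kb tiles. Peaks were placed in tiles by their midpoint but in the windows by any overlap. The Arg1 count therefore includes a peak whose midpoint lies outside the window, which makes its share somewhat too high.

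**Figure D1:**
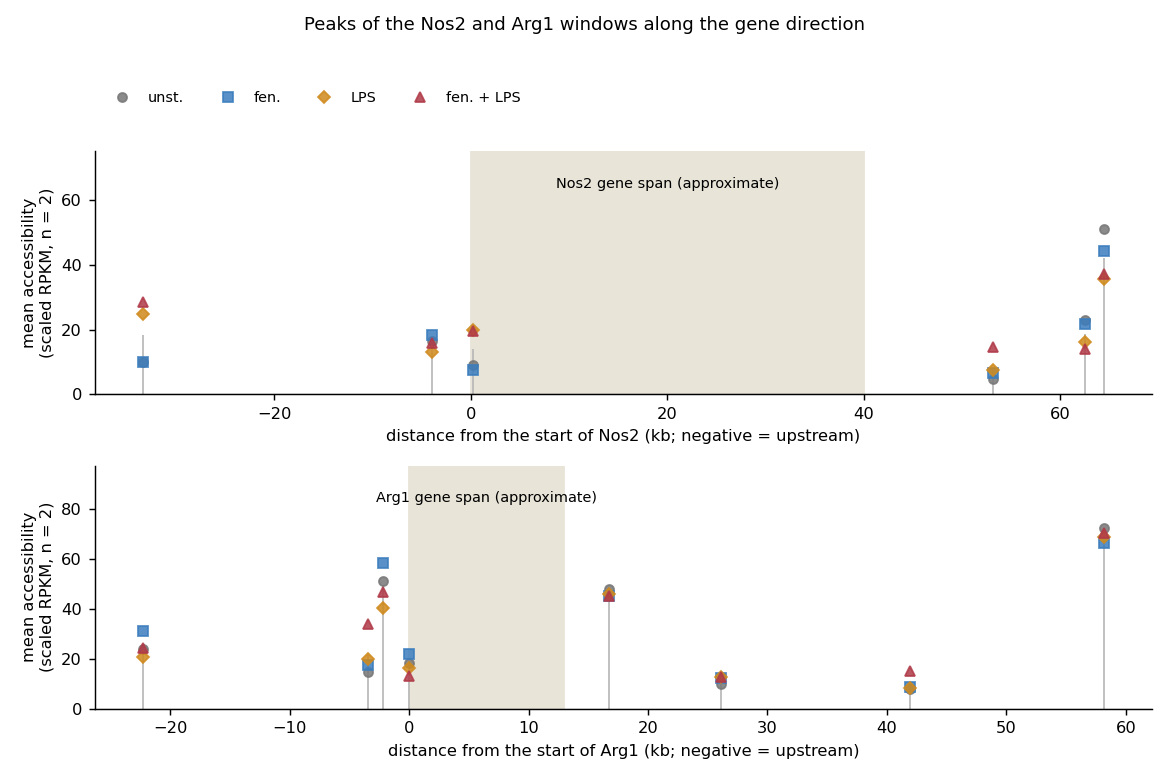
Mean accessibility of each group (scaled RPKM, n = 2 mice; symbols) at the 14 peaks, placed by their distance in kb from the start of Nos2 (top) and Arg1 (bottom), with the gene span shaded and grey stems reaching the mean of all 8 libraries. The LPS groups stand above the others at the start of Nos2 and 33.4 kb upstream of it, and fenoterol + LPS stands apart 3.5 kb upstream of Arg1.

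At Nos2, LPS was accompanied by higher accessibility at the gene's start and at a distant upstream peak, and by lower accessibility at a peak beyond the gene's far end. Averaged over the libraries with and without fenoterol, the start and the upstream peak were each more than 2-fold more accessible with LPS. No difference between fenoterol + LPS and LPS passed the test at the 5 tested Nos2 peaks, in a comparison where 0 of 66786 peaks passed.

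The peak at the start of Nos2 (chr11:78734016-78734364) had 6.43 and 11.7 RPKM in unstimulated cells of mouse 1 and mouse 2, and 5.41 and 9.59 RPKM with fenoterol. It had 20.3 and 19.5 RPKM with LPS and 21.8 and 17.6 RPKM with fenoterol + LPS. Every library with LPS thus lay above every library without it, at 17.6 to 21.8 RPKM against 5.41 to 11.7 RPKM. The means were 19.8 ± 1.74 RPKM with LPS and 8.29 ± 2.91 RPKM without (SD, n = 4 libraries each), a 2.39-fold ratio. On the tested scale the average effect of LPS was a log2 difference of 0.98 (SE 0.21, limma adjusted p = 0.0015). Taken alone, LPS against unstimulated cells gave 0.90 (SE 0.30) and missed the threshold, with a limma adjusted p of 0.0582, though it passed under 3 of 19 alternatives (limma adjusted p = 0.0124 to 0.278 over the 19). Fenoterol + LPS against fenoterol gave 1.06 (SE 0.30, limma adjusted p = 0.0194), and this call was lost without the fenoterol library of mouse 1 or either fenoterol + LPS library (log2 0.80 to 1.19, limma adjusted p = 0.0782 to 0.202). The effects of LPS with and without fenoterol differed by a log2 of 0.16, with a 95% interval of -0.71 to 1.03. Reads at this peak numbered 3 in the unstimulated library of mouse 1 (exact 95% Poisson interval 0.619 to 8.77, for counting error only) and 25 in each LPS library (16.2 to 36.9).

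The peak 33.4 kb upstream of Nos2 (chr11:78700307-78700928) showed the largest change of the 13 tested members in the average effect of LPS. It stood at 13.2 and 6.58 RPKM in unstimulated cells of mouse 1 and mouse 2 and at 8.59 and 11.6 RPKM with fenoterol. With LPS it stood at 24.6 and 24.9 RPKM, and with both agents at 27.3 and 29.6 RPKM. No library without LPS reached the lowest library with it, and the 2 mice gave ratios of LPS to unstimulated of 1.86 and 3.78. It rose with LPS against unstimulated cells by a log2 of 1.09 (SE 0.25, limma adjusted p = 0.00815) and with fenoterol + LPS against fenoterol by 1.21 (SE 0.25, limma adjusted p = 0.00261). The first difference ran from 0.59 with a pseudocount of 20 to 1.65 by voom, past the threshold in both. The first of these calls was lost without either LPS library (log2 1.10 and 1.08, limma adjusted p = 0.073 and 0.0883) and the second without the fenoterol + LPS library of mouse 2 (1.16, limma adjusted p = 0.0513). Its average effect of LPS was 1.15 (SE 0.18, limma adjusted p = 7.1e-05). Against fenoterol alone, fenoterol + LPS was at least 2-fold higher in both mice, as at 5.80% of all tested peaks. Across the 8 libraries its log2 values correlated with those of the Nos2 start peak at r = 0.80, a description that rests mainly on the contrast of libraries with and without LPS.

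The peak 3.9 kb upstream of Nos2 (chr11:78729878-78730330), the nearest to its start, did not share this rise. It had 16.5 RPKM in both unstimulated libraries, 18 and 18.8 RPKM with fenoterol, 13.8 and 12.6 RPKM with LPS and 17.9 and 14.2 RPKM with both. The fenoterol + LPS libraries overlapped the unstimulated ones and the LPS libraries were the lowest, and the average effect of LPS was -0.21 (limma adjusted p = 0.381).

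Of the 3 peaks beyond the far end of Nos2, 1 fell with LPS. This peak, 22.3 kb past it (chr11:78796296-78796780), had 20 and 25.8 RPKM unstimulated, 22 and 21.2 RPKM with fenoterol, 18.7 and 13.4 RPKM with LPS and 13.1 and 15 RPKM with both. It fell by 0.47 on the log2 scale on average with LPS (SE 0.15, limma adjusted p = 0.031), from 22.3 ± 2.49 to 15 ± 2.58 RPKM (SD, n = 4 libraries each). That call was kept without the unstimulated or the LPS library of mouse 1 and lost without any 1 of the other 6 (log2 -0.49 to -0.40, limma adjusted p = 0.0542 to 0.104). Its neighbour 24.2 kb past the gene (chr11:78798177-78798761), the most accessible member of the Nos2 window, had 62.6 and 39.5 RPKM unstimulated, 38.7 and 50.1 RPKM with fenoterol, 35.8 and 35.7 RPKM with LPS and 38.1 and 36.3 RPKM with both. All 4 libraries with LPS lay below the other 4, but its log2 difference of -0.33 missed the threshold (limma adjusted p = 0.0559), and passed it under 4 of 18 alternatives. Without the shallow unstimulated library of mouse 1, its highest, the difference was -0.19 (limma adjusted p = 0.207).

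The remaining Nos2 peak, 13 kb past the gene's far end (chr11:78786983-78787296), was left out by the filter on low values and is singled out here after its values were seen. It had 2.38 and 6.91 RPKM unstimulated, 5.01 and 8.21 RPKM with fenoterol, 8.13 and 6.92 RPKM with LPS and 16.1 and 13.4 RPKM with fenoterol + LPS. The lowest of these is the value of 1 read, which the table also gives to peaks without reads. Both fenoterol + LPS libraries lay above the other 6, on 20 and 15 reads. With no filter, its difference between fenoterol + LPS and LPS was 0.70 (SE 0.37, limma adjusted p = 0.746) and its average effect of LPS 0.65 (SE 0.27, limma adjusted p = 0.0841), opposite in sign to its neighbours further out.

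**Figure D2:**
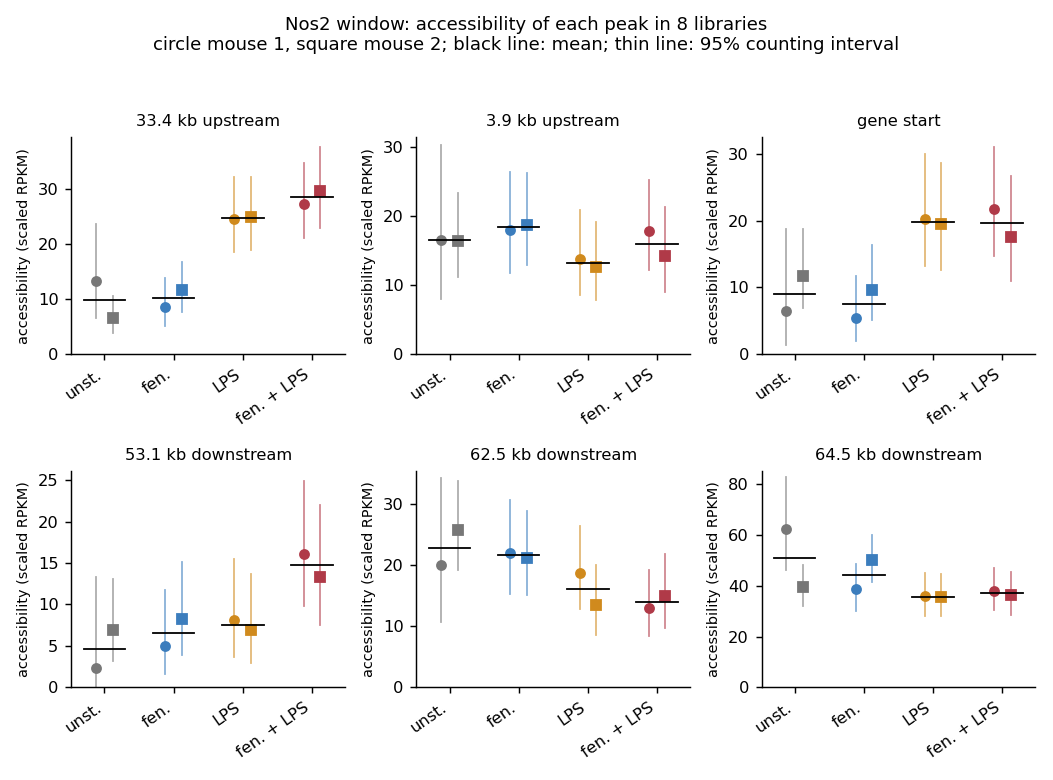
Accessibility (scaled RPKM, y axis from 0) of the 6 Nos2 peaks in the 4 groups; circles are mouse 1, squares mouse 2, black lines group means and thin vertical lines exact 95% Poisson intervals of the reads. At the gene's start the 4 libraries with LPS lie at 17.6 to 21.8 RPKM and the 4 without at 5.41 to 11.7 RPKM.

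At Arg1, no gain in accessibility with LPS was detected at the gene's start, and 1 peak upstream of it was highest with fenoterol + LPS. This peak, 3.5 kb upstream, was 1.71-fold higher on average with fenoterol + LPS than with LPS alone, a difference that did not pass the test across all peaks. The peak beside it, 2.2 kb upstream, fell on average with LPS.

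The peak 3.5 kb upstream of Arg1 (chr10:24651338-24651645) had 14.6 and 14.9 RPKM in unstimulated cells of mouse 1 and mouse 2, and 16.4 and 18.4 RPKM with fenoterol. It had 20.3 and 19.4 RPKM with LPS, and 37 and 30.9 RPKM with fenoterol + LPS. The 4 groups did not overlap, but how many other peaks share this was not counted, so no graded response is read from it. Neither agent alone differed from unstimulated cells past the threshold at this peak (limma adjusted p = 0.28 for LPS and 0.856 for fenoterol). Both fenoterol + LPS libraries lay above the other 6, as they did at 9.55% of all tested peaks. The reads behind the highest values were 45 (exact 95% Poisson interval 32.8 to 60.2) and 34 (23.5 to 47.5), against 22 (13.8 to 33.3) in each LPS library. Within mouse 1 fenoterol + LPS was 1.83 times LPS and within mouse 2 1.59 times.

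Fenoterol + LPS against LPS gave a log2 difference of 0.67 at this peak (SE 0.19, 95% interval 0.27 to 1.07), larger than at 97.8% of tested peaks. Its unadjusted p was 0.00234 and its limma adjusted p 0.459, in a comparison where 0 of 66786 peaks (0%) passed and 4447 had an unadjusted p under 0.05. By voom, a limma test on the recovered reads, the adjusted p was 0.164, and 0.602% of tested peaks passed. Over 19 alternatives the difference ran from 0.44 to 0.78 and the adjusted p from 0.0793, on the 4 libraries with LPS only, to 1. Fenoterol + LPS against fenoterol gave 0.82 (SE 0.19), and the peak rose in this comparison with a limma adjusted p of 0.00588. That call was lost without the fenoterol library of mouse 1 (0.76, limma adjusted p = 0.0674) or its fenoterol + LPS library (0.71, limma adjusted p = 0.125). LPS against unstimulated cells gave 0.35 (SE 0.19, limma adjusted p = 0.28). The LPS effects with and without fenoterol differed by 0.48, with a 95% interval of -0.09 to 1.04 (limma adjusted p = 0.851), so a dependence on fenoterol was not shown. The average effect of LPS was 0.59 (SE 0.14, limma adjusted p = 0.0051).

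The peak 2.2 kb upstream of Arg1 (chr10:24649928-24650430), 0.9 kb from the last one and more accessible, moved differently. It stood at 47.6 and 54.6 RPKM unstimulated, 66.2 and 50.1 RPKM with fenoterol, 40 and 40.5 RPKM with LPS and 50.3 and 43.3 RPKM with both. Libraries with and without LPS overlapped narrowly, at 40 to 50.3 RPKM against 47.6 to 66.2 RPKM. It fell by 0.30 on the log2 scale on average with LPS (SE 0.10, limma adjusted p = 0.0385), a call that was lost under 7 of 18 alternatives. These were cyclic loess scaling, no mean trend, and leaving out either LPS library, the fenoterol library of mouse 1, or the unstimulated or fenoterol + LPS library of mouse 2 (log2 -0.30 to -0.23, limma adjusted p = 0.0789 to 0.164 over the 7).

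The peak at the start of Arg1 (chr10:24647820-24648196) had 9.92 and 26.8 RPKM in unstimulated cells, the widest gap between mice at this peak, on 5 and 42 reads. It had 24.2 and 19.8 RPKM with fenoterol, 16.6 and 15.9 RPKM with LPS and 13.4 and 12.6 RPKM with both. Apart from the shallow unstimulated library, the libraries with LPS lay below those without. The average effect of LPS was -0.32 (SE 0.21, limma adjusted p = 0.297; voom adjusted p = 0.0333, where 26.8% of tested peaks passed by voom), and fenoterol + LPS against fenoterol gave -0.61 (SE 0.29, limma adjusted p = 0.182). The start of Nos2 thus had a positive and called average effect of LPS and the start of Arg1 a negative one that missed the threshold by limma-trend; these were not tested against each other.

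Downstream of Arg1, the most accessible members hardly varied. The peak 58.2 kb from the start (chr10:24589425-24590162), with a mean of 69.4 RPKM the highest of all 14 and above 97.3% of all peaks, ranged from 60.3 to 81 RPKM. The peak 16.8 kb from the start (chr10:24630934-24631533) ranged from 40.7 to 49.8 RPKM, with group means of 48 ± 2.62 in unstimulated cells, 45 ± 6.01 for fenoterol, 45.8 ± 3.37 for LPS and 44.9 ± 0.305 for the combination (SD, n = 2). Highest over lowest library was 1.34-fold and 1.22-fold at these peaks, where the median tested peak had 1.98-fold. Counting error widens this ratio at peaks with few reads, so these are not like for like. The 2 peaks had 80 to 197 and 40 to 115 reads per library, and the median of all peaks was 9 to 28 reads. Their average effects of LPS were 0.01 and -0.03 with limma adjusted p of 0.946 and 0.861.

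The other 3 members of the Arg1 window passed no test. The peaks 26.1 kb and 42.0 kb from the start (chr10:24621816-24622015 and chr10:24605924-24606159) were the lowest of the window, at 7.50 to 15.5 RPKM and 4.0 to 19.4 RPKM and with no more than 18 reads in any library. The peak 22.3 kb upstream (chr10:24669992-24670640) lay between 20.1 and 36.8 RPKM, its highest value being the fenoterol library of mouse 1.

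**Figure D3:**
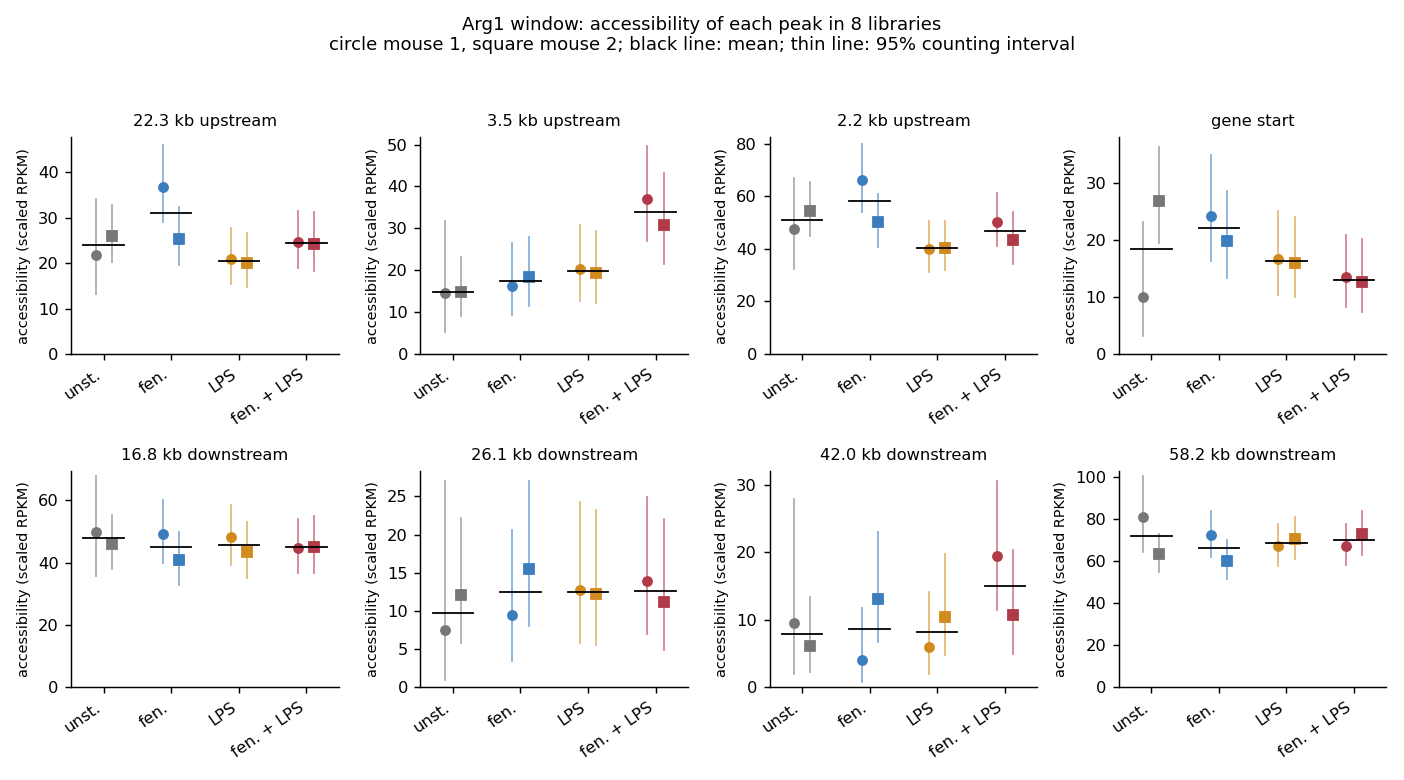
Accessibility (scaled RPKM, y axis from 0) of the 8 Arg1 peaks in the 4 groups; circles are mouse 1, squares mouse 2, black lines group means and thin vertical lines exact 95% Poisson intervals of the reads. At 3.5 kb upstream the fenoterol + LPS libraries lie at 37 and 30.9 RPKM and the other 6 at 14.6 to 20.3 RPKM.

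The counts of called members are set here beside those of all tested peaks. For LPS against unstimulated cells 1 of 13 tested members (7.69%) rose and 0 fell, where 10.1% of all tested peaks were called, 6.53% higher and 3.54% lower. For fenoterol + LPS against fenoterol 3 of 13 (23.1%) rose and 0 fell, against a background of 13.7%, 9.43% higher and 4.32% lower. For the average effect of LPS 5 of 13 (38.5%) were called, 3 higher and 2 lower, against 22.9% of all tested peaks, 13.0% higher and 9.91% lower. Nothing particular to the members is read from counts this small, and the median average effect was -0.03 both for them and for all tested peaks. The 4 libraries with LPS all lay above the 4 without at 3 members and all below at 2, as at 12.3% and 11.3% of all tested peaks.

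**Figure D4:**
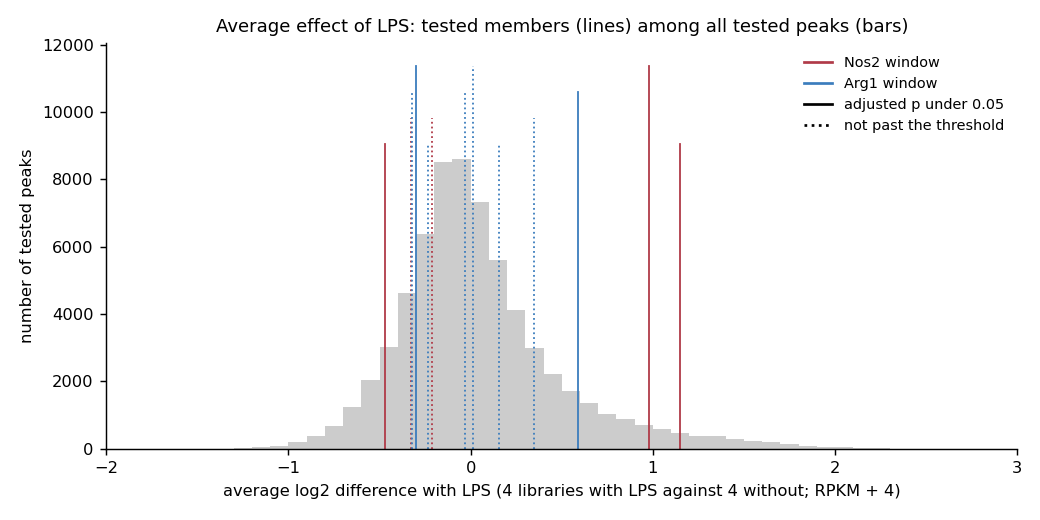
Average log2 difference with LPS (x axis, value + 4 RPKM) for all 66786 tested peaks (bars, number of peaks on the y axis) and for the 13 tested members (vertical lines; the line heights carry no meaning). The 2 Nos2 peaks at 0.98 and 1.15 lie in the upper tail, at the 95.5th and 96.9th percentiles.

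Fenoterol alone for 15 min moved no member past the threshold by limma-trend or voom, in a comparison where 0.00749% of all tested peaks were called by limma-trend. At an unadjusted limma p under 0.05, fenoterol alone had 0 of 13 tested members, and 4962 of all 66786 tested peaks. The difference between the LPS effects with and without fenoterol had 0 members and 4225 of all tested peaks. Fenoterol + LPS against LPS had 1 member, the Arg1 peak 3.5 kb upstream, and 4447 of all tested peaks. Nothing particular to the members is read from these counts. For fenoterol alone, the log2 difference at the start of Nos2 was -0.18 with a 95% interval of -0.80 to 0.44. At the Arg1 peak 3.5 kb upstream it was 0.19 with an interval of -0.21 to 0.59. Changes of a size within these intervals remain possible with n = 2. For fenoterol + LPS against LPS at the start of Nos2 the difference was -0.02, with an interval of -0.63 to 0.60.

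**Figure D5:**
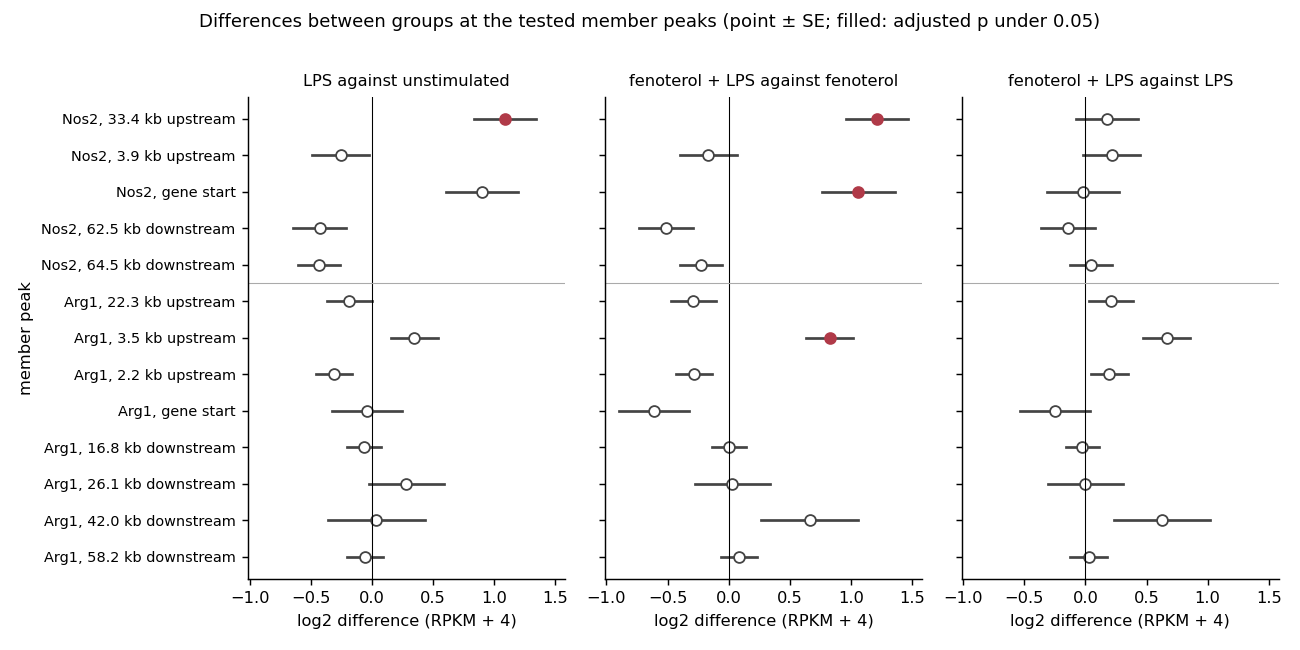
Log2 differences (value + 4 RPKM; point ± SE, filled where limma's adjusted p is under 0.05) of the 13 tested members in 3 comparisons. Filled points are 1 for LPS against unstimulated, 3 for fenoterol + LPS against fenoterol and 0 for fenoterol + LPS against LPS, where the Arg1 peak 3.5 kb upstream has the highest value at 0.67.

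Sums over the peaks of a window were not tested. Per kilobase of peak, the Nos2 window ranged from 17.9 to 23.6 RPKM over the 8 libraries on 2802 bp of peaks, and the Arg1 window from 35.6 to 43.5 RPKM on 3603 bp. For the Nos2 window, the ratios within mouse 1 and mouse 2 were 0.941 and 1.08 for LPS to unstimulated, 0.773 and 1.15 for fenoterol to unstimulated, 1.08 and 1.11 for fenoterol + LPS to LPS, and 1.32 and 1.04 for fenoterol + LPS to fenoterol. For the Arg1 window they were, in the same order, ratios of 0.920 and 0.934, 1.12 and 0.945, 1.10 and 1.07, and 0.902 and 1.06. The mice lay on opposite sides of 1 in 2 of the 4 ratios in each window.

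Patterns like those of the leading members were sought among the 4461 peaks with a mean of at least 20 RPKM and a range of at least 1 log2 unit. Closest to the peak 33.4 kb upstream of Nos2 was chr10:67738070-67738443 (r = 0.995 over 8 libraries), followed by chr12:78640500-78641120 and chr12:102243780-102244242 (0.992 and 0.989). Closest to the peak 3.5 kb upstream of Arg1 was chr10:85633979-85634437 (r = 0.994), with 44.1 and 36.5 RPKM with fenoterol + LPS and at most 23.5 RPKM in the other 6 libraries. The next were chr2:148356135-148356691 and chr10:95700287-95700707 (0.986 and 0.985). Of the 4461, 918 peaks had r above 0.9 with the Nos2 peak and 110 with the Arg1 peak. These are descriptions over 8 libraries that share mice and treatments.

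The nearest peaks outside the windows were 21.4 and 30.8 kb from the bounds at Nos2, with means of 10.6 and 10 RPKM. At Arg1 they were 45.8 and 91.7 kb away, with means of 31.5 and 11.2 RPKM. The first member inside the Arg1 window, the peak of 69.4 RPKM, crosses its lower bound.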

How the data were processed

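The authors deposited RPKM values of 74207 peaks in 8 libraries. They used cutadapt, Bowtie2, MACS2 and HOMER on build mm9, per the submitters' processing notes. Versions, the handling of duplicates, a Tn5 shift and any pooling before peaks were called: not given in the sources used here. Multiplying each value by its peak's length gave whole reads (within 0.01) for 100% of values, so reads were recovered. The table gives peaks without reads the value of 1 read (1598 peaks in the unstimulated library of mouse 1, 20 to 202 in the others).

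Values were divided by median-ratio size factors (0.940 to 1.04). A filter removed the 7421 peaks (10%) with a mean below 9.62 RPKM. limma 3.58.1 in R 4.3.3 fitted 4 group means to all 8 libraries, and an additive model gave the average effect of LPS. Tests were tried on simulated data. Libraries of 1 mouse share its number in the labels, which pairs them; differences between the mice correlated across groups at 0.0222 to 0.0713. P-values rest on 2 mice per group and a spread shared over peaks. For the average effect of LPS, the 4 libraries on either side came from 2 mice and entered as independent, with no term for the mouse.

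The members, the gene lists and the tests were chosen with earlier results of these data known. Named in full were 10 members: those past the threshold in any of the 6 tests, the 3 highest by mean in each window, those within 5 kb of a gene span, and those at least 2-fold apart in both mice in a single comparison. Other arginine pathway genes and cell type markers were not analysed here, since they need gene positions of build mm9. Alternatives were other scalings, pseudocounts of 0.8 and 20, no filter or a 25% filter, a fit with no mean trend, a block for the mouse, voom on reads, a fit on 4 libraries, and leaving out each library.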

Additional observations from a re-analysis of the deposited data

How the results depend on the processing

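All 14 log2 differences followed through the alternatives kept their sign. All 14 were smaller with a pseudocount of 20, 11 of them by over 1.5 times (1.53 to 2.00 times); beyond that setting, voom moved 1 and leaving out a library 1 by as much, both at Nos2. Leaving out 1 library at a time gave 0 to 3 called members for LPS against unstimulated cells, where all libraries gave 1 (0 without either LPS library, 2 when the fenoterol library of mouse 1 was omitted and 3 when the unstimulated library of mouse 2 was). It gave 1 to 4 for fenoterol + LPS against fenoterol, where all gave 3, and 3 to 6 for the average effect of LPS, where all gave 5. A pseudocount of 20 gave 2 for LPS against unstimulated cells. In every fit 0 members were called for fenoterol alone, for fenoterol + LPS against LPS and for the interaction. With the mouse as a replicate block the counts were 1, 3 and 5 and no call changed. The average effects of LPS at the start of Nos2, 33.4 kb upstream of it and 3.5 kb upstream of Arg1 stayed past the threshold under all 18 alternatives. At the Arg1 peak, LPS against unstimulated cells alone gave 0.35 and missed the threshold (limma adjusted p = 0.28). Fenoterol + LPS against fenoterol gave 0.82 there (limma adjusted p = 0.00588). The planned edgeR and DESeq2 fits were not run, since the deposited values are RPKM. The depth of the unstimulated library of mouse 1 limits every comparison with unstimulated cells at low peaks.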

Other observations

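Some members moved alike or oppositely over the 8 libraries, given as a description, since the libraries share mice and treatments. The pairs below were picked from all pairs of members after their values were seen. Another strong pair, the Arg1 peaks 58.2 kb and 26.1 kb downstream of the start, correlated at r = -0.89. The Arg1 peaks 2.2 kb and 22.3 kb upstream correlated at r = 0.93, and both were highest in the fenoterol library of mouse 1. The Arg1 peak 3.5 kb upstream correlated at 0.90 with the low Nos2 peak 13 kb past that gene's far end, on another chromosome; both were highest in the fenoterol + LPS libraries. Within the Nos2 window, the peak 33.4 kb upstream correlated at -0.91 with the peak 22.3 kb past the far end, the first being higher and the second lower in all 4 libraries with LPS.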
